A study of Homo sapiens with 6 samples.

Results

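The unfolded protein response (UPR) and endoplasmic reticulum (ER) folding genes were examined in RCC4, a cell line of human clear cell renal carcinoma that lacks functional VHL. The genes are 39 listed symbols of ER chaperones, factors of ER-associated degradation (ERAD) and UPR sensors, of which 38 were found among the 60683 genes of the count table. VIMP1P had no entry of that name and has no value here. RNA sequencing was done on parental RCC4 cells, whose genotype is given as wild type (n = 3), and on RCC4 cells with ATF4 knocked out (n = 3). The labels name no treatment for either group, and give neither the knockout method nor whether 1 clone or a mixed population was used. Replicates are not said to be separate cultures, so p-values measure only the spread between these samples. Bulk libraries also cannot tell fewer expressing cells from less RNA per cell.

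Proteins that enter the ER are folded by lumenal chaperones such as the HSP70 protein BiP and by protein disulfide isomerases, while glycoproteins cycle through calnexin and calreticulin. Misfolded proteins are returned to the cytosol and degraded by ERAD. When unfolded proteins accumulate, 3 sensors act. ATF6 is cut in the Golgi to release a transcription factor that induces chaperones. IRE1, encoded by ERN1, splices the XBP1 mRNA, whose product induces co-chaperones, translocation and ERAD genes. PERK phosphorylates eIF2 and so increases the translation of ATF4. Gene counts do not show XBP1 splicing, ATF6 cleavage or eIF2 phosphorylation.

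The listed genes are also known for short promoter elements, which were looked up in the RefSeq promoter windows of build GRCh38.p14 that run from 250 bases before to 50 bases after a start site. A window was found for 34 of the 38 genes. The ER stress response element ERSE (CCAAT and CCACG with any 9 bases between) lay on either strand in 7 of these 34 genes (20.6%) and in 0.0916% of all 27305 genes with a window. The ERSE-II form (ATTGG and CCACG with any 1 base between) lay in 3 of 34 (HERPUD1, HYOU1 and SDF2L1) against 0.0696% of all genes. The 7 with ERSE were CALR, CANX, CRELD2, HSP90B1, HSPA5, PDIA6 and XBP1, so that 5 of the 9 ATF6-type chaperones held it. The UPR element UPRE (TGACGTGG) lay in DNAJC10 and HYOU1 (0.927% of all genes). The C/EBP-ATF element CARE (TGATGNAA), to which ATF4 dimers are known to bind, lay in HERPUD1 and CREB3L2. That is 5.88% of the 34 genes, close to the 4.46% of all genes. In HYOU1 the UPRE match and an ERSE-II match overlapped. A match describes letters only, and elements that differ from these letters were not looked for. The 38 genes are listed because they are known UPR genes.

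The following stretches end at the base before the RefSeq start site, 5′ to 3′ on the gene's strand, with the fixed letters of each match in capitals. They are shown because they hold the matches of genes that moved in opposite directions between the groups.
HSPA5 (chr9:125241344-125241443, minus strand): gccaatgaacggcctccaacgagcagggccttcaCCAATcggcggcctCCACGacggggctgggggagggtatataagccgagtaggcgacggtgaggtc
HSP90B1 (chr12:103930210-103930409, plus strand): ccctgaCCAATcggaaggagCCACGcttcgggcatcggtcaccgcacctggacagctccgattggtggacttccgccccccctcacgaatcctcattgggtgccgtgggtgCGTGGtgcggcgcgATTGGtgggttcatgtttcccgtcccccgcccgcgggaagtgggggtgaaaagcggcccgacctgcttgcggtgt
PDIA6 (chr2:10812786-10812885, minus strand): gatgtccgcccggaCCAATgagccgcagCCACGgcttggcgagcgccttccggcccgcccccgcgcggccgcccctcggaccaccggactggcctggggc
CRELD2 (chr22:49918534-49918633, plus strand): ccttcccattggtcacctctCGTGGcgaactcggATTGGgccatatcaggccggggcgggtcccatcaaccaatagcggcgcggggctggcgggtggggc
XBP1 (chr22:28800570-28800669, minus strand): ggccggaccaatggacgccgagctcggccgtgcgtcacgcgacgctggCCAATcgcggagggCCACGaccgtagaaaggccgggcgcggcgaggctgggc
HERPUD1 (chr16:56931962-56932141, plus strand): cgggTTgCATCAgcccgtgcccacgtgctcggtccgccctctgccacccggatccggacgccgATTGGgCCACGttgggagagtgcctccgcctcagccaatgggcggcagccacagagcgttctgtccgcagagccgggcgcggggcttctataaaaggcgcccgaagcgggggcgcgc

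HSPA5 has an exact ERSE from -66 to -48 relative to the start site, PDIA6 from -86 to -68 and XBP1 from -52 to -34. HSP90B1 has an ERSE on each strand, from -194 to -176 and from -89 to -71. CRELD2 has it on the opposite strand from -80 to -62. HERPUD1 holds a CARE match on the opposite strand from -176 to -169 and an ERSE-II from -117 to -107. HSPA5, HSP90B1 and PDIA6 were higher in the knockout cells, whereas CRELD2, XBP1 and HERPUD1 were lower, as described below with each gene. Of the ERSE genes whose stretches are not printed, CALR was higher and CANX did not pass the test. CRELD2 and XBP1 lie on chromosome 22, where neighbouring genes were also lower (median log2 fold changes of -0.29 and -0.27). With this removed CRELD2 was at -0.03 and not called, and XBP1 was at -0.12.

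Libraries held 41002611 to 46755358 counts. The renal epithelial marker PAX8 was present in both groups, at 238 CPM (counts scaled by TMM-adjusted library size) in parental and 215 CPM in knockout cells. The leukocyte and endothelial markers PTPRC, CD3E, PECAM1, CDH5 and LYZ had at most 6 counts in any library. The ATF4 transcript was at 244 ± 5.97 CPM (SD, n = 3) in parental cells against 214 ± 8.04 CPM (SD, n = 3) after knockout, and gene counts do not show whether its coding sequence was altered. Its log2 fold change was -0.19, beside a median of -0.25 for the nearest 50 tested genes on each side. With this median removed in the fit, ATF4 was at 0.06 and did not pass the test (edgeR adjusted p = 0.0870). Of 15321 tested genes 42.0% passed the test between the groups (edgeR adjusted p below 0.05, the threshold for every call), 21.2% as higher and 20.8% as lower in the knockout cells. For 49.6% of tested genes the groups did not overlap.

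All 38 genes passed the low-count filter. Of these 14 were higher and 9 were lower in the knockout cells and 15 did not pass the test, so that 36.8% were higher and 23.7% lower. The median log2 fold change (knockout over parental) was 0.05, against 0.01 over all tested genes, and single genes ranged from -0.42 to 0.59. The changes were small, with the largest, in the sparse DERL3, at 1.51-fold. The groups did not overlap for 25 of the 38, against 49.6% of all tested genes. By role, 6 of 9 ATF6-type chaperones were higher, and of 5 sensors and transcription factors 3 were lower and none higher.

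**Figure D1:**
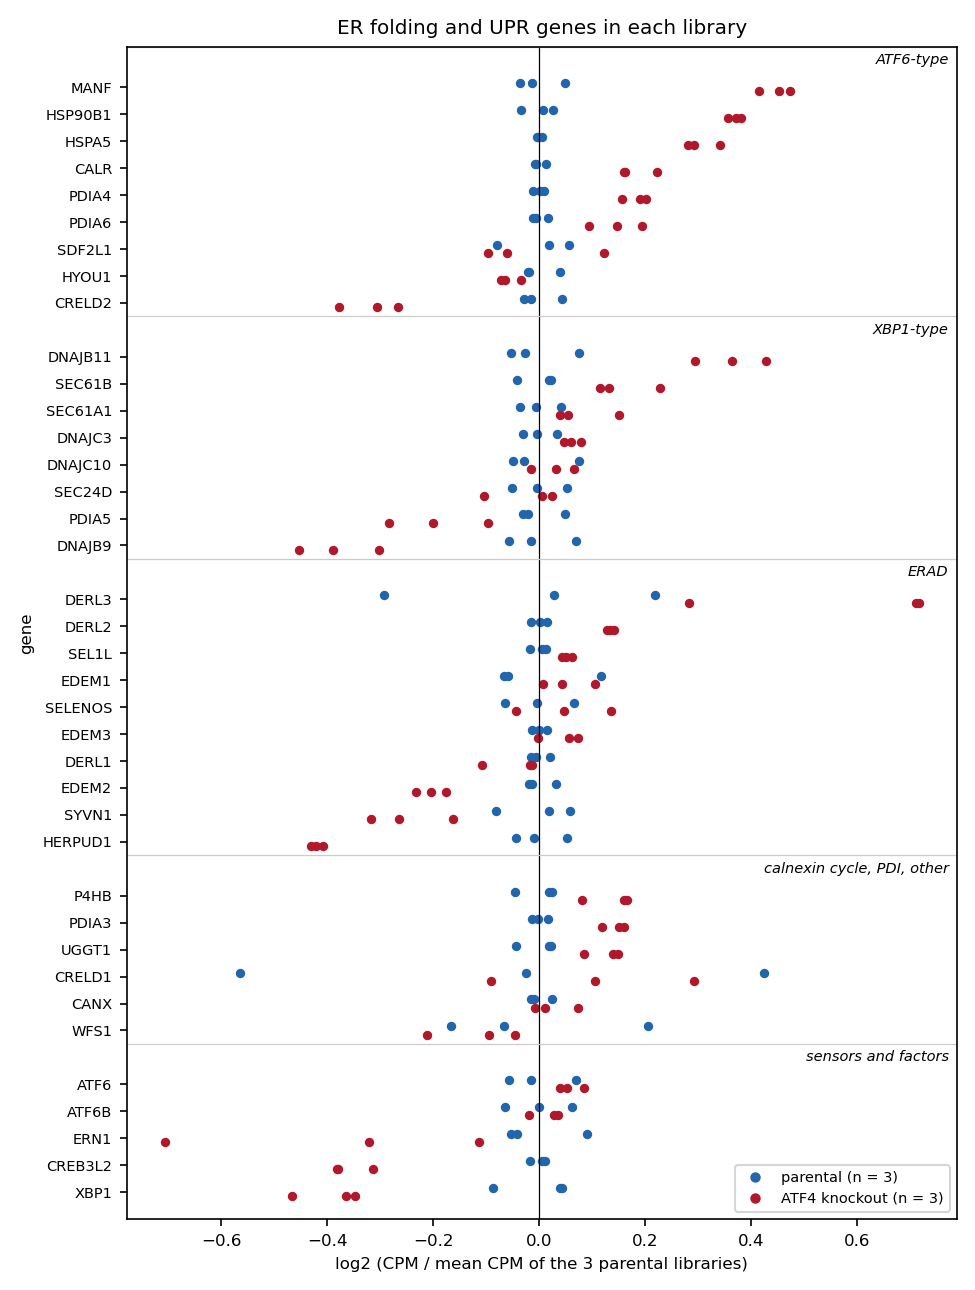
Level of each of 38 ER folding and UPR genes in each library, as log2 of CPM over the mean CPM of the 3 parental libraries (x axis), with genes in rows by role. Blue points are parental and red points ATF4 knockout libraries (n = 3 each). All 3 knockout points of MANF, HSP90B1, HSPA5 and DNAJB11 lie to the right of the parental points, and those of HERPUD1, XBP1, CREB3L2 and DNAJB9 to the left.

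Most ATF6-type chaperones were higher in the knockout cells. Of 9 genes 6 were higher (66.7%) and 1 was lower (11.1%), against 21.2% and 20.8% of all tested genes. The median log2 fold change of the 9 was 0.18. Together these chaperones took 0.548, 0.552 and 0.552% of all raw counts in the parental libraries and 0.670, 0.657 and 0.655% in the knockout libraries.

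HSPA5 encodes BiP, the main HSP70 chaperone of the ER lumen (ENSG00000044574, chromosome 9, 125234853 to 125241330, GRCh38). It was at 1057, 1065 and 1059.9 CPM in the parental libraries and 1344, 1299 and 1288 CPM in the knockout libraries. The groups lay well apart, and HSPA5 was 1.24-fold higher (log2 0.30, SE 0.028, edgeR adjusted p = 9.58e-14). HSP90B1, the HSP90 paralog GRP94 (chromosome 12, 103930107 to 103953645), was at 1122, 1155 and 1170.0 CPM in parental and 1487, 1471 and 1497 CPM in knockout libraries. It rose 1.29-fold, with a log2 fold change of 0.37 (SE 0.028, adjusted p = 1.02e-16). MANF, a secreted and ER-resident protein that binds BiP (chromosome 3, 51385047 to 51389397), was at 44.2, 44.9 and 46.8 CPM in parental and 62.0, 62.9 and 60.4 CPM in knockout libraries. MANF showed the largest rise of this group, 1.36-fold, at 0.45 (SE 0.042).

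CALR, PDIA4 and PDIA6 rose by less. CALR, the lectin chaperone calreticulin, had the highest level of all 38 genes, per length too, at 655 CPM per kb of exon in parental cells. It lay at 1768 to 1794 CPM in parental and 1985 to 2073 CPM in knockout libraries (log2 fold change 0.18, SE 0.028). The disulfide isomerases PDIA4 and PDIA6 rose from 635 ± 4.84 to 721 ± 11.7 CPM and from 717 ± 7.26 to 794 ± 27.8 CPM (SD, n = 3 each), by 0.18 and 0.15. In all 6 higher genes every knockout library was above every parental library. Exons of PDIA6 are covered by ATP6V1C2 on the opposite strand over 25.2% of their length in GENCODE 29, and the strand setting used for counting is not given in the sources used here.

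The other members of this group did not follow them. CRELD2, a secreted ER stress protein on chromosome 22, was at 26.0, 26.3 and 27.3 CPM in parental and 22.1, 21.5 and 20.4 CPM in knockout libraries, a fall of 0.32 on the log2 scale (SE 0.057, adjusted p = 7.58e-06). SDF2L1, which keeps BiP clients soluble and lies on the same chromosome, was at 10.4, 11.1 and 11.4 against 10.3, 12.0 and 10.6 CPM, and the groups overlapped (95% interval of the log2 fold change -0.18 to 0.16). HYOU1, the nucleotide exchange factor of BiP on chromosome 11, was at 135, 135 and 141 against 131, 130.2 and 134 CPM (log2 fold change -0.06, adjusted p = 0.137), which did not pass the test although the groups did not overlap.

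CRELD2, SDF2L1 and HYOU1 lie where neighbouring genes were also lower. The median log2 fold change of the nearest 50 tested genes on each side was -0.29, -0.30 and -0.15 for them, and between -0.03 and 0.09 for the 6 that rose. When this median was removed in the fit, 8 of the 9 chaperones were higher and 0 lower, while 36.5% of all genes tested in this way were called, 18.1% as higher and 18.4% as lower. In that fit HSPA5, HSP90B1 and MANF were at 0.21, 0.40 and 0.39, and CRELD2 was not called at -0.03. SDF2L1 and HYOU1 were called in it at 0.29 (edgeR adjusted p = 0.00478) and 0.09 (0.0144). Without the removal they were at -0.01 and -0.06 and not called. The error of the median itself is not carried in that fit, so its p-values leave out part of the uncertainty. Across all 38 genes 7 had neighbours at -0.15 or less and none at 0.15 or more. The 4 on chromosome 22 were CRELD2, DERL3, SDF2L1 and XBP1, and the others were HYOU1, SYVN1 and EDEM2. For CRELD2, EDEM2 and SYVN1, which were called lower beside such neighbours and were not called once these were removed, a change of the region and a change of the gene alone cannot be told apart. Of the other 31 genes 13 were higher and 5 lower. This selection left out only genes beside lower neighbours, so these counts cannot be set beside the shares over all tested genes.

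**Figure D2:**
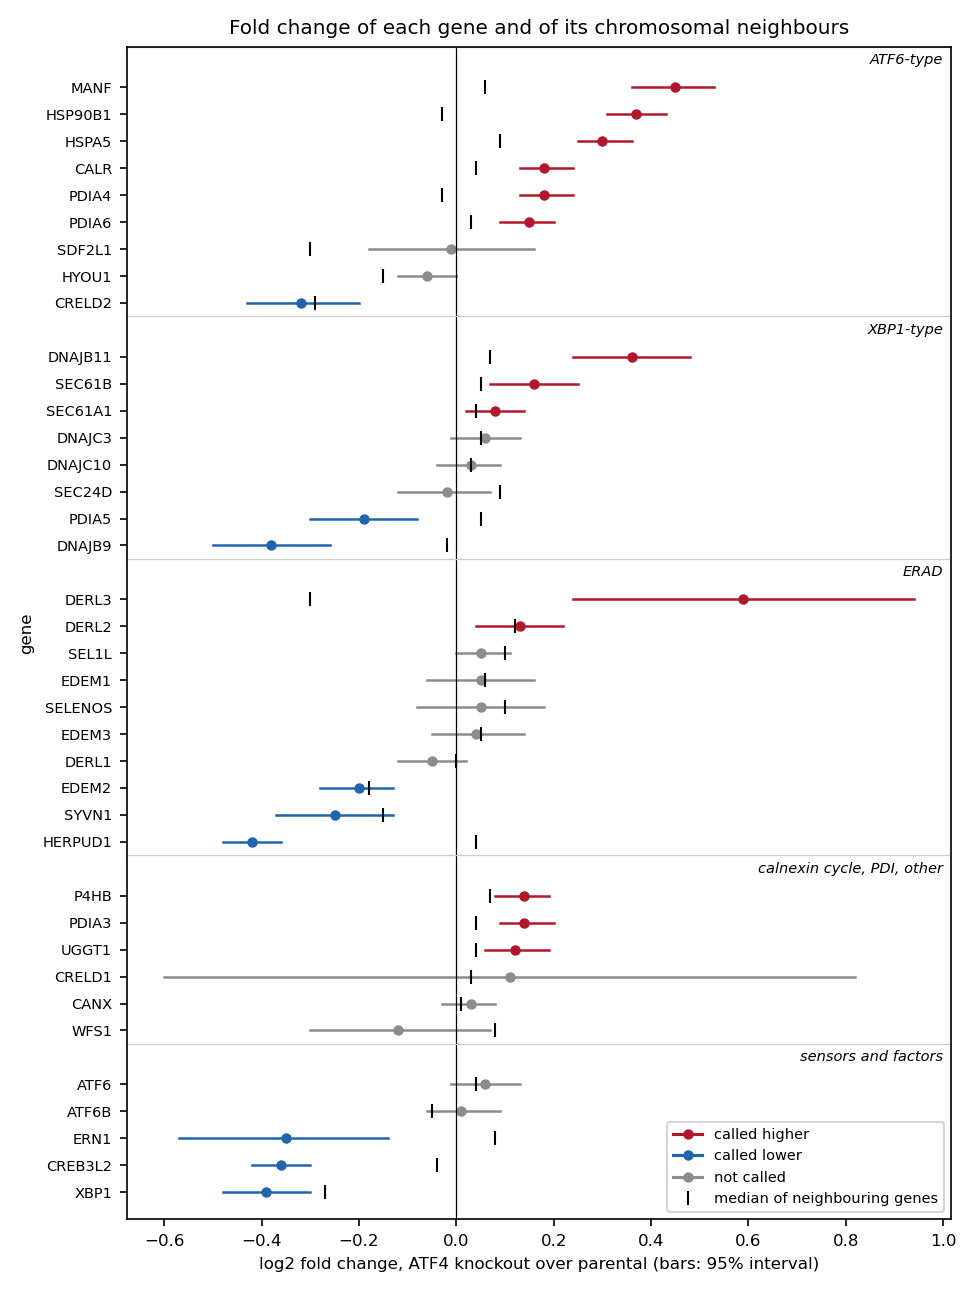
Difference between ATF4 knockout and parental cells as a log2 fold change (x axis) for each gene with its 95% interval, and the median of the nearest 50 tested genes on each side (black ticks). Red genes were called higher, blue lower and grey not called. CRELD2 (-0.32) lies beside its neighbours at -0.29, while HERPUD1 (-0.42) and DNAJB9 (-0.38) lie far to the left of theirs at 0.04 and -0.02.

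Of 8 XBP1-type co-chaperones and transport factors 3 were higher (37.5%) and 2 lower (25.0%), against 21.2% and 20.8% of all tested genes. Their median was 0.05, or 0.03 without parental replicate 2 and 0.02 without knockout replicate 1. DNAJB11, the lumenal HSP40 protein ERdj3 that hands clients to BiP, was at 19.4, 19.7 and 21.2 CPM in parental and 27.1, 25.9 and 24.7 CPM in knockout libraries. It rose 1.29-fold, at 0.36 (SE 0.059, adjusted p = 1.03e-06). DNAJB9, the HSP40 protein ERdj4 that brings BiP to IRE1 and to ERAD clients, was at 26.2, 24.7 and 24.0 CPM in parental and 18.2, 20.2 and 19.0 CPM in knockout libraries. It fell by 0.38 (SE 0.061, adjusted p = 6.34e-07). These HSP40 genes therefore moved apart, with no overlap between groups for either.

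PDIA5, another disulfide isomerase, fell by 0.19, from 34.6, 36.3 and 34.4 CPM to 28.8, 32.8 and 30.5 CPM (SE 0.053, adjusted p = 0.00249). The remaining HSP40 proteins, DNAJC3 (P58IPK) and DNAJC10 (ERdj5, a disulfide reductase), were not called, at 0.06 and 0.03 with 95% intervals of -0.01 to 0.13 and -0.04 to 0.09. The Sec61 channel subunits SEC61B and SEC61A1 were called at 0.16 and 0.08. SEC61B was not called without knockout replicate 2 (adjusted p = 0.0577). SEC61A1 overlapped between the groups, since parental replicate 2 (464 CPM) was above knockout replicate 2 (463.6 CPM), and it was not called without parental replicate 1 or 3 or without knockout replicate 1 (0.04 without the last). The COPII coat gene SEC24D was at -0.02 (95% interval -0.12 to 0.07). After removal of the neighbours' median, DNAJB11 was higher, and DNAJB9, PDIA5 and SEC24D were lower, at 0.29, -0.36, -0.24 and -0.12, and the Sec61 subunits were not called.

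Among 10 ERAD factors 2 were higher and 3 lower. The median was 0.05, or 0.03 without any 1 parental replicate or knockout replicate 2, and 0.02 without knockout replicate 3. HERPUD1, an ER membrane protein that assembles the HRD1 ligase complex (ENSG00000051108, chromosome 16, 56932048 to 56944863), fell most. It was at 149, 156 and 146 CPM in parental and 112, 113 and 111 CPM in knockout libraries, a fall of 1.34-fold (log2 -0.42, SE 0.031, adjusted p = 6.81e-17). Its neighbours were at 0.04. SYVN1, which encodes the HRD1 ubiquitin ligase itself, fell by 0.25 (22.4, 24.0 and 24.7 against 21.2, 19.7 and 19.0 CPM), and EDEM2, which starts mannose trimming of clients, fell by 0.20 (85.7 ± 1.62 against 74.4 ± 1.47 CPM, SD, n = 3 each). SYVN1 on chromosome 11 and EDEM2 on chromosome 20 had neighbours at -0.15 and -0.18, and were at -0.09 and -0.03 and not called when these were removed.

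SEL1L, the partner of HRD1, was at 171, 168 and 171 against 178, 175 and 176 CPM. Its groups did not overlap, but the difference of 0.05 did not pass the test (adjusted p = 0.141). The mannosidase-like EDEM1 and EDEM3, the derlin DERL1 and the membrane selenoprotein SELENOS were not called either, between -0.05 and 0.05. The derlins DERL2 and DERL3, which act in retrotranslocation, were higher. DERL2 was at 43.4, 42.8 and 43.8 against 47.8, 47.5 and 47.3 CPM (log2 fold change 0.13), close to its neighbours at 0.12. DERL3 was sparse, with 93, 66 and 79 counts per parental library against 92, 140 and 143 per knockout library, a log2 fold change of 0.59 (SE 0.17, adjusted p = 0.00457), and was not called without parental replicate 2 (adjusted p = 0.0509). Its neighbours were at -0.30, and with their median removed it was at 0.89 (adjusted p = 3.76e-05). The exons of DERL3 are covered by SMARCB1 on the opposite strand over 77% of their length.

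Of 6 genes of the calnexin cycle, general oxidoreductases and other ER proteins, 3 were higher, by small amounts, and 0 lower (median 0.12, or 0.07 without parental replicate 3). PDIA3, the isomerase of the calnexin cycle, was at 415, 424 and 419 CPM in parental and 469, 455 and 466 CPM in knockout libraries (log2 fold change 0.14, SE 0.027, adjusted p = 1.61e-05). P4HB, the protein disulfide isomerase PDI, was at 1353, 1359 and 1295 against 1498, 1492 and 1412 CPM (0.14), and the folding sensor UGGT1 at 137, 131 and 137 against 149, 143 and 149.9 CPM (0.12). P4HB was at 0.07 and not called with the median of neighbouring genes removed (adjusted p = 0.0543). Calnexin itself, CANX, did not pass the test, at 1449.5, 1410.0 and 1415 against 1498, 1418 and 1436 CPM (0.03, 95% interval -0.03 to 0.08). WFS1, an ER membrane protein mutated in Wolfram syndrome, was at -0.12 (-0.30 to 0.07). CRELD1 had only 14 to 29 counts in any library, and its interval of -0.60 to 0.82 leaves its difference unresolved at this depth.

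The sensors and transcription factors showed no rise. Of 5 genes 3 were lower (60.0%) and 0 higher, against 20.8% and 21.2% of all tested genes. The median of the 5 was -0.35, or -0.22 without knockout replicate 1. XBP1 (ENSG00000100219, chromosome 22, 28794555 to 28800597) was at 52.3, 57.3 and 57.1 CPM in parental and 43.1, 43.7 and 40.2 CPM in knockout libraries. It fell by 0.39 (SE 0.046, adjusted p = 2.60e-10), but its neighbours were at -0.27, and with these removed it was at -0.12 (adjusted p = 0.0293). CREB3L2, an ER-anchored bZIP factor that is cut in the Golgi like ATF6 (chromosome 7, 137874979 to 138002067), was at 152, 152 and 149.5 CPM in parental and 116, 116 and 122 CPM in knockout libraries. It fell 1.28-fold, at -0.36 (SE 0.031, adjusted p = 1.16e-14), against neighbours at -0.04.

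ERN1 was at 10.4, 10.5 and 11.5 CPM in parental and 6.64, 8.67 and 10.02 CPM in knockout libraries. It was called lower at -0.35 (SE 0.10, adjusted p = 0.00639), but the knockout libraries spread widely, and without knockout replicate 1 it was at -0.22 and not called (adjusted p = 0.0780). ATF6 and ATF6B, which encode the ATF6 sensor and its paralog, were not called. ATF6 was at 88.7, 94.1 and 86.2 against 93.1, 92.2 and 95.2 CPM (0.06, 95% interval -0.01 to 0.13), and was called higher at 0.10 without parental replicate 2 (adjusted p = 0.0467). ATF6B was at 77.4, 80.9 and 84.5 against 83.0, 82.5 and 79.8 CPM (0.01, -0.06 to 0.09).

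Most of the listed genes with the highest levels were higher in the knockout cells. At a parental level of at least 90 CPM per kb of exon, a limit chosen after the values were seen, lay 9 of the 38 genes (CALR, HSPA5, P4HB, HSP90B1, CANX, PDIA4, PDIA6, PDIA3 and SEC61A1). The next gene, EDEM2, was at 44.7 CPM per kb. Of these 9 genes 8 were higher and 0 lower, while of the other 29 genes 6 were higher and 9 lower. CALR, HSPA5, HSP90B1, PDIA4 and PDIA6 are ATF6-type chaperones already described above, so these counts are not a separate result. P4HB and SEC61A1 were not called with the median of neighbouring genes removed. Of the 398 tested genes at or above this level in the table, 29.1% were higher and 36.9% were lower, with a median of -0.02. In all, the 38 genes took 1.07, 1.07 and 1.06% of counts in parental libraries and 1.22, 1.196 and 1.19% in knockout libraries, 1.13 times as much.

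**Figure D3:**
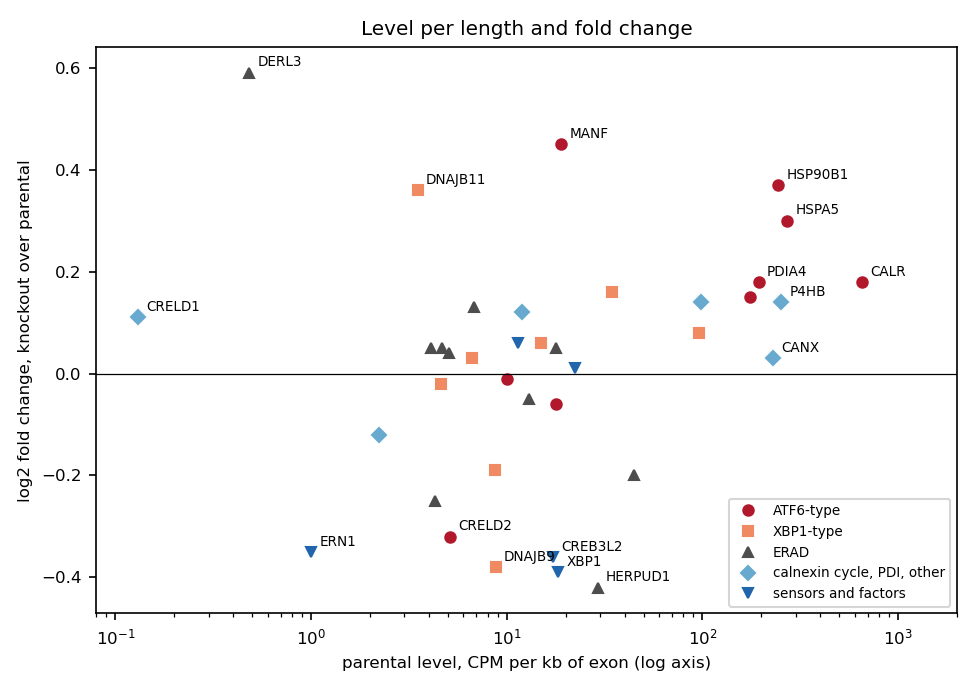
Parental level in CPM per kb of exon (x axis, log scale) against the log2 fold change of knockout over parental cells (y axis), for 38 genes, with colours and shapes for roles. The genes at 90 CPM per kb or more all lie above 0, and HERPUD1, XBP1, CREB3L2 and DNAJB9 lie lowest, between -0.42 and -0.36, at 8.79 to 29.1 CPM per kb.

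The other genes of the pathway were taken from 5 further lists. In the PERK arm, which includes ATF4 targets, 7 of 14 genes were lower and 2 higher (median -0.19). NUPR1, TRIB3, CEBPG and CEBPB had the smallest p-values, with log2 fold changes of -3.18, -0.68, -0.56 and -0.50. The higher genes were ERO1A, the oxidase that recharges PDI, from 146 to 178 CPM (0.28, SE 0.030), and the death receptor TNFRSF10B (0.10). TNFRSF10B was not called without knockout replicate 3 (0.07) or after removal of the neighbours' median (0.04). EIF2AK3, which encodes PERK, was not called at 0.02. Among 15 tested genes for sensor processing and other ER factors 4 were lower (26.7%) and 2 higher (13.3%). Of all tested genes 20.8% were lower and 21.2% higher. MBTPS2, the site-2 protease that releases ATF6, fell by 0.40 (-0.15 and still called after removal of the neighbours' median), and RTCB, the ligase that joins spliced XBP1 mRNA, fell by 0.36 (-0.08 and not called). MBTPS1, the site-1 protease, and BFAR were called at -0.07 and -0.08 but not with total-count scaling, with no low-count filter or in most fits without 1 sample, and NFYC and TRAF2 at 0.18 and 0.22. The lower genes of this list numbered 2 without parental replicate 1 or 2 or knockout replicate 2 or 3.

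Other lumenal folding enzymes were more often lower, with 17 of 38 lower (44.7%) and 3 (TMX1, QSOX1 and TXNDC12) higher (7.89%). Their median was -0.06. Of all tested genes 20.8% were lower and 21.2% higher. KDELR3, PRDX4, FKBP10 and HSPA13 had the smallest p-values, at -0.47, -0.27, -0.25 and -0.38. KDELR3 belongs to the receptors that return lumenal chaperones from the Golgi, and KDELR1 and KDELR2, named after their values were seen, were also lower at -0.08 and -0.15. All 3 receptors stayed lower after removal of the neighbours' median, between -0.21 and -0.08. KDELR1 was not called with total-count scaling or without parental replicate 1 or 2 or knockout replicate 2. After the same removal FKBP10 was at -0.33, HSPA13 only at -0.11 (adjusted p = 0.0425), PRDX4 was not called (-0.03), and of the higher genes only TMX1 was called (0.21). TXNDC12 was also not called with DESeq2 or without parental replicate 1 or 3 or knockout replicate 1 or 3. In a list of 28 other ERAD factors 9 were higher (32.1%) and 6 lower (21.4%), with a median of 0.03. Over all tested genes the shares were 21.2% and 20.8%. FAM8A1, which binds HRD1, fell by 0.50, the ligase RNF185 by 0.53 and UBE2J1, the ubiquitin-conjugating enzyme of HRD1, by 0.27, while the ligase MARCHF6 rose by 0.36. After removal of the neighbours' median these were still called, at -0.43, -0.27, -0.15 and 0.09. The higher genes of this list numbered 5 without parental replicate 1 and 4 without parental replicate 3 or knockout replicate 1. Of 46 genes for translocation, glycosylation and export 10 were higher and 8 lower (median 0.03), close to the shares over all tested genes. SSR4, SSR3, SRP68 and RPN2 had the smallest p-values, at -0.37, -0.19, 0.19 and -0.15. After removal of the neighbours' median SSR4 was at -0.18 and SSR3 at -0.21, both still lower, while SRP68 (0.06) and RPN2 (0.02) were not called. Without parental replicate 1, 6 genes of this list were higher.

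**Figure D4:**
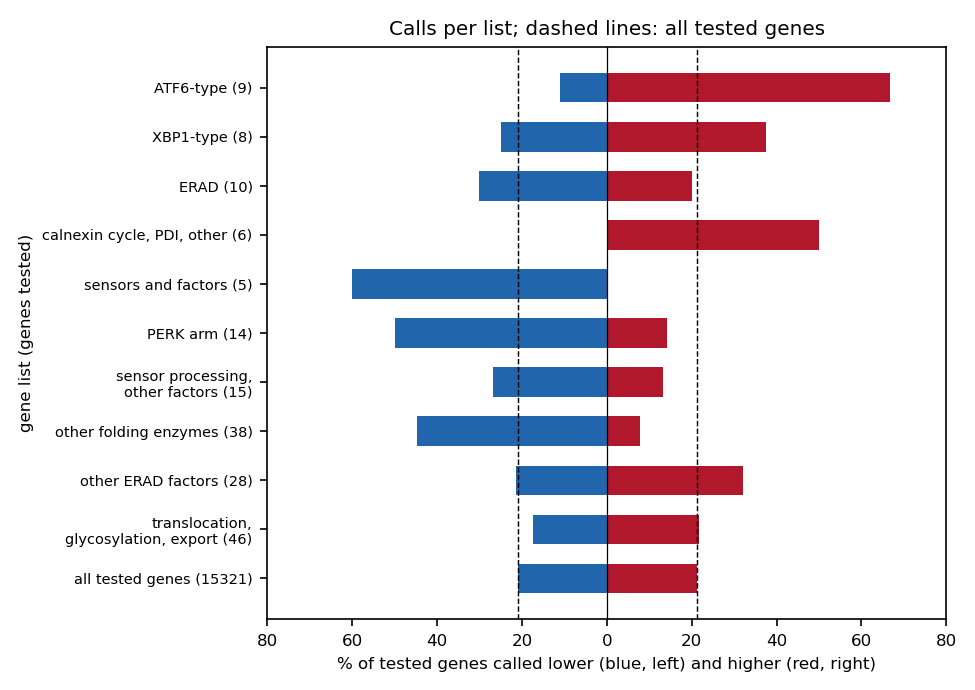
Share of tested genes called lower (blue, left) and higher (red, right) in the knockout cells for each list, with the number tested in brackets and dashed lines at the shares over all tested genes (20.8% and 21.2%). ATF6-type chaperones have 66.7% higher and 11.1% lower, the sensors and factors 60.0% lower and other folding enzymes 44.7% lower.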

How the data were processed

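Per the labels, a kit for stranded mRNA libraries was used for 3 parental and 3 ATF4 knockout RCC4 samples. The authors deposited raw read counts per gene. The submitters' processing notes name bcl2fastq 2.20, cutadapt, STAR, HTSeq and GRCh38, with other versions, annotation release and strand setting not given in the sources used here. The members and gene lists were chosen with earlier results of these data known. Symbols came from a table of gene names (60370 identifiers) and GENCODE 29 (289), which also gave positions, exon lengths and overlaps. The table holds 2187 identifiers that are not in GENCODE 29, so overlaps with newer gene models were not seen.

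Genes were kept by filterByExpr (15321), scaled by TMM and tested with edgeR's (4.0.16, R 4.3.3) quasi-likelihood F test with robust dispersion, adjusted over all tested genes (Benjamini-Hochberg). CPM are TMM-scaled, errors are SD or the SE of the fit. Alternatives were a replicate block, DESeq2 (1.42.0), limma-voom (3.58.1), RLE and total-count scaling, other filters, removal of the median log2 fold change of the nearest 50 tested genes on each side as an offset (its own error is not carried), and leaving out each sample. Chi-square over its degrees of freedom was 3.59 to 5.80 for pairs of replicates, above sampling noise, and 37.9 to 44.1 between groups. A gene without counts could be at 0.0642 to 0.0732 CPM at most, depending on the library (3 counts, for counting error alone). All listed members are named, and of the other lists the 4 genes with the smallest p-values and any direction with 5 or fewer calls. The fits were tested on simulated data.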

Additional observations from a re-analysis of the deposited data

How the results depend on the processing

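Of the 38 genes, 16 kept their direction and their side of the threshold in every alternative of 14 in which they were tested. Of these, 14 were called, among them HSPA5, HSP90B1, CALR, PDIA4, PDIA6, MANF, DNAJB11, DNAJB9, HERPUD1 and CREB3L2. The counts of higher and lower members were 12 to 17 and 7 to 9. Deviations of same-numbered samples correlated at -0.0277, 0.0063 and -0.0155, so no effect shared by replicate number was seen. These values cannot show whether same-numbered samples were handled together. The replicate block gave 14 higher and 9 lower members and moved no other count by more than 1.5 times. CRELD1 was not tested with the strict filter.

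With the median of neighbouring genes removed, HYOU1 turned to 0.09 and SDF2L1 to 0.29, and uncalled genes changed sign without being called: SEL1L and SELENOS to -0.05, EDEM3 to -0.01, and DNAJC10 and EDEM1 to -0.00. In that fit the ATF6-type chaperones had 0 lower and a median of 0.21, the XBP1-type genes 1 higher and a median of 0.00, ERAD factors 1 higher, 1 lower and a median of -0.04, the calnexin cycle group a median of 0.07 and the sensors -0.12. The PERK arm then had 1 higher, other ERAD factors 3 higher and the translocation list 6 higher. With total-count scaling SDF2L1 was at 0.02 and SEC24D at 0.00, the medians of ATF6-type, XBP1-type and ERAD genes were 0.21, 0.07 and 0.07, 1 sensor gene (ATF6) was higher, 2 sensor-processing genes were lower and 18 translocation genes were higher. With no low-count filter 2 sensor-processing genes were lower, and with DESeq2 5 other ERAD factors were higher.

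Over the fits that left out 1 sample each, medians ranged from 0.16 to 0.19 for ATF6-type chaperones, 0.02 to 0.07 for XBP1-type genes, 0.02 to 0.04 for ERAD factors, 0.07 to 0.13 for the calnexin cycle group and -0.36 to -0.22 for the sensors. Higher genes numbered 1 to 2 among ERAD factors (1 without parental replicate 2), 0 to 1 among sensors (ATF6 without parental replicate 2), 1 to 2 in the PERK arm, 4 to 7 among other ERAD factors and 6 to 10 in the translocation list, and 2 to 3 sensor-processing genes were lower. A count of 14 to 29 limits what can be seen for CRELD1, and 66 to 143 for DERL3. Uncalled genes whose sign changed in these fits were SDF2L1 (-0.08 to 0.03), SEC24D (-0.05 to 0.02), CANX (-0.00 to 0.04), CRELD1 (-0.10 to 0.38) and ATF6B (-0.02 to 0.05).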

Other observations

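Among the prolyl isomerases in the list of other folding enzymes, singled out after their values were seen, FKBP7, FKBP9, FKBP10 and FKBP14 were called lower in the knockout cells, while FKBP11 (0.14), PPIB (-0.04) and PPIC (-0.05) did not pass the test and FKBP2 was too low to test. FKBP7 fell by 0.36 on the log2 scale (edgeR adjusted p = 2.36e-08), from a parental 40.5 ± 1.93 CPM to 31.6 ± 0.111 CPM (each with its SD over 3 samples). FKBP14 went from 50.9 ± 1.92 to 43.4 ± 1.25 CPM (-0.23). The groups did not overlap for either, and both were called in every alternative. FKBP9 (-0.07) was not called in 8 of the 14 alternatives. GPX7 and GPX8, lumenal peroxidases, were called at -0.17 and -0.14. GPX7 overlapped between the groups and was not called with DESeq2 (adjusted p = 0.0561), with total-count scaling, or without parental replicate 1 (-0.10) or knockout replicate 1. GPX8 was not called without parental replicate 2 or knockout replicate 2.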
